A study of Mus musculus with 3 samples.

Results

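NF-Y-ChIP peaks that held a single CCAAT box made up 210 of the 733 NF-Y-ChIP peaks (28.6%) in the embryonic mouse cortex. A peak was counted here when exactly 1 copy of CCAAT, on either strand (ATTGG on the other), lay wholly within 100 bp of its summit in the GRCm38 reference sequence. These members were chosen by measured values, since both the list of peaks and the position of each summit come from the NF-Y-ChIP library. Of the other peaks, 471 held several boxes (274 with 2 and 197 with 3 or more) and 52 held none. All 210 boxes lay inside the peak as deposited, and no box was shared by 2 of these peaks. For comparison, exactly 1 box was found in 17.9% of 1466 equally wide windows placed 500 bp away from the summits on both sides.

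NF-Y is a heterotrimer of NF-YA, NF-YB and NF-YC, in which NF-YB and NF-YC form a histone-like dimer and NF-YA reads the CCAAT box in the minor groove. CCAAT boxes are classic elements of proximal promoters, including those of many genes for the cell cycle, the endoplasmic reticulum and lipid synthesis. H3K4me3, trimethylation of lysine 4 on histone H3, marks the promoters of active genes. Bases next to the core are known to matter for NF-Y binding, with purines favoured before CCAAT and G or C followed by a purine favoured after it.

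Chromatin of cortices at E13.5 gave 3 libraries, an input without antibody, NF-Y-ChIP with an antibody against NF-YC, and H3K4me3-ChIP, with 1 library of each. No genotype, strain or number of embryos was given in the labels, and the tissue is a mix of progenitors and newborn neurons. Because each antibody has only 1 library, there is no replicate check and no p-value, and the 95% intervals below describe these lists of peaks only, since peaks of 1 library are not replicates. The lists hold no read counts, so depth is unknown. The H3K4me3-ChIP peaks covered the promoters of 10 of 10 cortical marker genes (fold enrichment 4.61 to 60.7), of 0 of 6 markers of other organs and of 1 of 4 markers of vessels and microglia (9.38).

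The following boxes are shown because all 4 bases next to the core fit the favoured pattern and because they carry a high fold enrichment of NF-Y-ChIP or belong to genes described below. Each is the RefSeq GRCm38.p6 sequence from 12 bases before to 12 bases after the core, read 5′ to 3′ along the strand that carries CCAAT, with the core in capitals.
Med13, chr11:86358310-86358338, minus strand: acctcgcggcggCCAATgggcgagcagag
Ccnyl1, chr1:64690718-64690746, minus strand: ggtgacgggtagCCAATcagacccggact
Chek2, chr5:110839945-110839973, minus strand: ctccaccctcaaCCAATcaaaaagccttc
Gm31816, chr9:47327764-47327792, plus strand: accaagcttcagCCAATgagatataagca
Cpd, chr11:76847068-76847096, plus strand: ttccagccttagCCAATcgtagccttgaa
Man1c1, chr4:134714137-134714165, plus strand: gggtagctctggCCAATgagctcctagca
Ubap1, chr4:41348954-41348982, minus strand: cacccgccccgaCCAATgggaggagccga
Terc, chr3:96414870-96414898, minus strand: tgctgggctcgaCCAATcagcgcgcgcca
Ncaph, chr2:127133678-127133706, minus strand: cggggcgctgggCCAATcaggacgcagct
Brca1, chr11:101552025-101552053, minus strand: aagactaggtagCCAATcgcaaacccaga
Srebf2, chr15:82147122-82147150, minus strand: ggcttgcattagCCAATcggcgcgcgaag
In all of them the 2 bases before CCAAT are purines, the base after it is G or C, and the next base is a purine.

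The opposite end of the flanking sequence is shown by the 5 peaks whose box met 0 or 1 of these 4 conditions. All 5 lacked an H3K4me3-ChIP peak, and their boxes lay in introns or outside annotated genes.
Crim1, chr17:78231849-78231877, plus strand: cacccccaccccCCAATttggtcattaaa
Gm45886, chr8:65035953-65035981, plus strand: tatttcttacacCCAATtctcacacttct
Pot1a, chr6:25759113-25759141, minus strand: accattaagttcCCAATttttttataata
1700010H22Rik, chr5:98691394-98691422, plus strand: attgcatctgccCCAATacagtggattct
Gm26645, chr13:15419319-15419347, minus strand: aactataatagtCCAATacatgttttaaa
Each is named by the gene with the nearest transcription start site (TSS). Their fold enrichments were 6.50 at Crim1, 5.34 at Gm45886, 4.38 at Pot1a, 4.19 at 1700010H22Rik and 3.89 at Gm26645, and the box lay 68 bp from the summit at Crim1 and 82 bp at Gm26645.

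The fold enrichment, which is the NF-Y-ChIP signal at the summit over the local background as the peak caller gives it, had a median of 6.49 in the 210 peaks (interval 6.27 to 6.78). The middle of the distribution ran from 5.27 to 8.26 (lower to upper quartile) and the extremes were 3.02 and 33.7. The median was 7.0 (6.75 to 7.32) in peaks with several boxes and 5.40 (4.38 to 6.18) in peaks without a box. Of the 25% of all peaks with the highest fold enrichment, 42 were 1-box peaks, which is 20% of the 1-box peaks, compared with 28.5% of the peaks with several boxes and 13.46% of those without a box. Since fold enrichment belongs to the measurement that chose the peaks, these values are a description. A q-value below 0.05 was found in 199 of the 1-box peaks (94.8%) and in 696 of all 733 peaks (94.95%). It was found in 455 of the 471 peaks with several boxes (96.6%) and in 42 of the 52 without a box (80.8%).

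**Figure D1:**
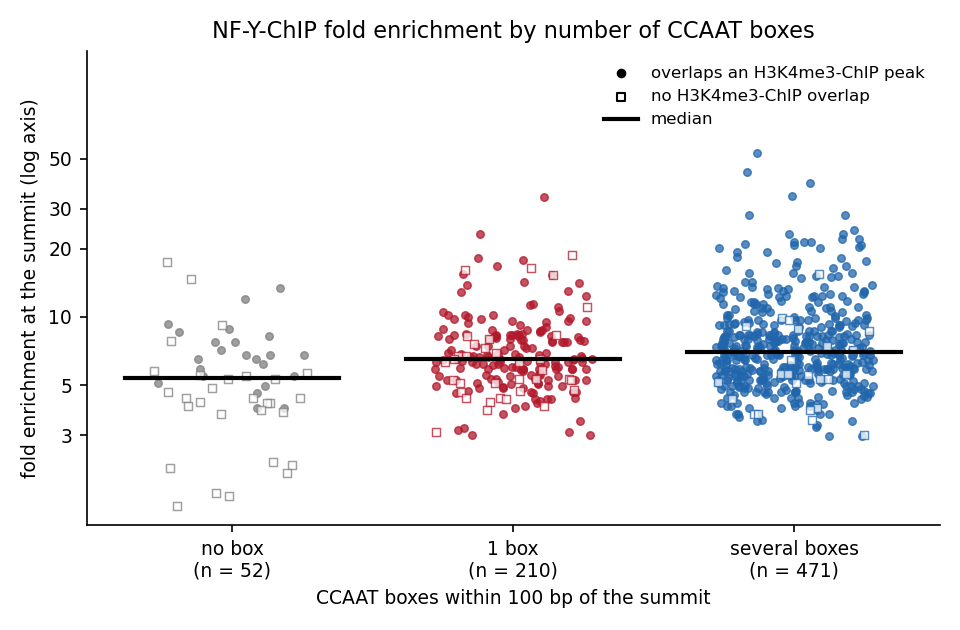
NF-Y-ChIP fold enrichment (log axis) of every peak, grouped by the number of CCAAT boxes within 100 bp of the summit, with filled points for peaks that overlap an H3K4me3-ChIP peak, open squares for those that do not and a line at each median. The 1-box peaks run from 3.02 to 33.7 around a median of 6.49, between those without a box (5.40) and those with several boxes (7.0), and all 3 distributions overlap.

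The strongest 1-box peak, ranked 5 of all 733, had a fold enrichment of 33.7 and lay at Depdc1b, which encodes a DEP domain protein of dividing cells, with its box 12 bp upstream of the TSS. The next was at Med13, a subunit of the kinase module of Mediator (23.3, box 722 bp upstream of the nearest TSS). The peak nearest to the noncoding AC113961.1 had 18.8 and lay 3317 bp upstream of its TSS without H3K4me3. Spcs2, a signal peptidase subunit, followed with 18.2 and a box 51 bp downstream of the TSS. Ccnyl1, a cyclin Y-like gene, had 17.8 and Chek2, a kinase of the DNA damage checkpoint, had 16.8, with boxes 90 and 20 bp upstream of the TSS. The top of the list therefore held promoters as well as places away from any TSS. Gm31816 had 16.5 with a box 34972 bp downstream of its TSS, and Man1c1, a mannosidase of the Golgi, had 15.3 with a box 9861 bp upstream. Tle6 (16.04), a gene of the transducin-like enhancer family, had its box 14 bp downstream of the TSS and no H3K4me3-ChIP peak. Thg1l, which adds a guanylate to histidine tRNA, had 15.5 and Cpd, a carboxypeptidase, had 15.3. Terc, the RNA template of telomerase, had 10.2 with the box 25 bp upstream of its start. The 5 lowest values were 3.02 at Rnf214 and at Srsf5, 3.10 at Gm15201 and at Gm17075, and 3.15 at Pnn.

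The flanking bases of the single boxes were far from even. Counted along the CCAAT strand, the base 2 before the core was a purine in 185 boxes (88.1%), the base 1 before it was a purine in 178 (84.8%), the base 1 after it was G or C in 187 (89.0%) and the base 2 after it was a purine in 191 (91.0%). All 4 conditions held in 138 of 210 boxes (65.7%, 59.1 to 71.8), exactly 3 in 53, exactly 2 in 14, exactly 1 in 2 and none in 3. In the places next to the core, the most frequent bases were G directly before it (55.7%), C directly after it (56.7%), A in the second place after it (59.0%) and G in the place after that (57.1%). The bases were not part of the choice of peaks, so they could be compared with other boxes.

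Single boxes at 2 kinds of place without an NF-Y-ChIP summit served as the comparison. Of 5071 single boxes at H3K4me3-marked promoters with no NF-Y-ChIP summit within 1 kb, searched at the usual place of the summits 53 bp upstream of the TSS, 23.2% met all 4 conditions, which is 42.5 percentage points below the 1-box peaks (interval of the difference 35.7 to 48.7). Of 262 single boxes in the windows 500 bp from the summits, 10.3% did (difference 55.4, 47.5 to 62.3). The box of a 1-box peak was therefore more often flanked by the favoured bases than a CCAAT box at a marked promoter where no peak was called.

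Compared with the peaks that held several boxes, using the box nearest to the summit in each, the share with all 4 conditions was 11.4 points higher (65.7% against 54.4%, interval 3.36 to 18.9). This difference depended on the stringency. With 3 or 4 conditions met the shares were 91.0% and 91.1% (difference -0.130, -5.30 to 4.18), and where any of the boxes in a peak with several boxes could supply the 4 bases the 1-box peaks were 15.6 points lower (-23.0 to -8.44).

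Further from the core, GC stood 7 and 6 bases before CCAAT in 88 of the 210 boxes (41.9%, 35.4 to 48.7), as in gcggcggCCAAT at Med13. The C at position 6 alone was present in 65.2% and the G at position 7 in 53.8%. The pair was found in 30.1% of the boxes nearest the summit in peaks with several boxes, in 9.11% of the single boxes at marked promoters without a summit and in 6.11% of those 500 bp from summits. Among the peaks with several boxes it was in 35.8% (30.3 to 41.6) of those with 2 boxes, an interval that overlaps that of the 1-box peaks, and in 22.3% (17.1 to 28.6) of those with 3 or more. All 4 near conditions together with this pair held in 61 boxes (29.0%) of the 1-box peaks, in 15.1% with several boxes and in 2.41% at marked promoters without a summit. The pair was chosen after its frequency in these peaks was seen, so these shares are a description. Median fold enrichment was 7.10 (6.49 to 7.82) in the 88 peaks with the pair and 6.17 (5.82 to 6.50) in the 122 without it, and 24 of the 88 against 18 of the 122 were among the 25% of all peaks with the highest fold enrichment.

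**Figure D2:**
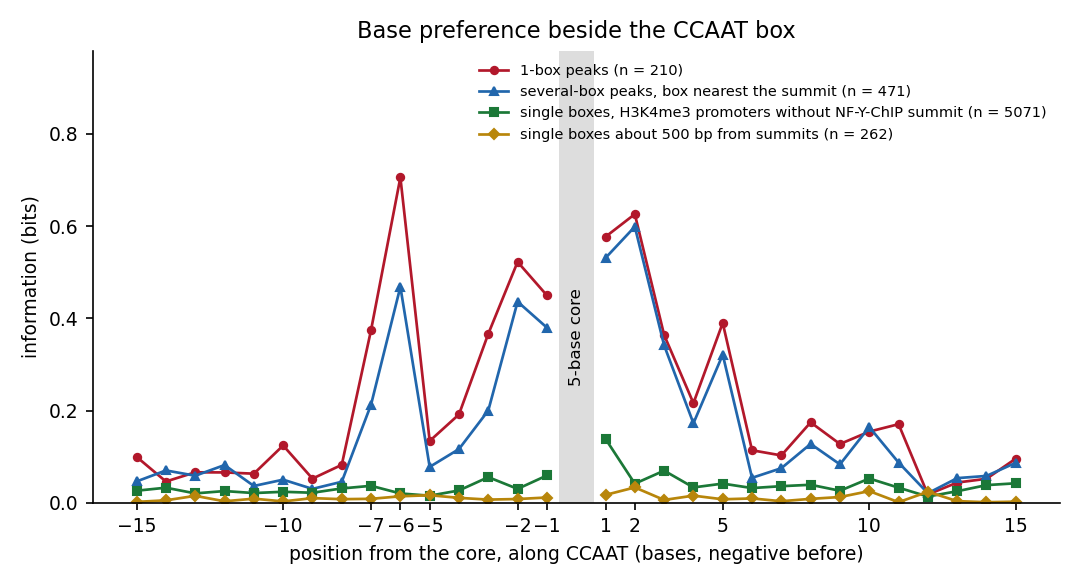
Information content in bits at each base from 15 before to 15 after the CCAAT core, for the 1-box peaks, the box nearest the summit in peaks with several boxes, and single boxes at marked promoters without an NF-Y-ChIP summit or 500 bp from summits. The 1-box peaks rise to 0.705 bits at position 6 before the core and 0.626 bits at position 2 after it, while single boxes without a summit stay at 0.139 bits or lower.

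Over the whole flank, the fit of the bases went only weakly with the strength of the peaks. A log-odds score over the 7 bases before and 5 bases after the core, with weights taken from the nearest boxes of peaks with several boxes against single boxes at marked promoters without a summit, had a median of 2.94 bits in the 1-box peaks and -4.44 bits in single boxes 500 bp from summits, neither of which set the weights. Across the 210 peaks of this 1 library, its Spearman correlation with fold enrichment was 0.0983. Of the 53 peaks with the highest scores, 14 were among the 25% of all peaks with the highest fold enrichment, and of the 53 with the lowest scores, 7 were. Fold enrichment had medians of 6.41 with all 4 near conditions (138 peaks), 6.94 with exactly 3 (53 peaks) and 6.30 with 0 to 2 (19 peaks), and the intervals of these medians overlapped.

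The single box lay close to the summit, at a median distance of 19 bp (16 to 21). It was within 10 bp in 62 peaks (29.5%), within 25 bp in 137 (65.2%) and within 50 bp in 189 (90%). The distance is bounded by the rule that chose the peaks and is given as a description. In peaks with several boxes the nearest was 11 bp away, which is nearer in part because the closest of several was taken. At the edge of the window, single boxes far from the summit belonged to Eif4a1, Gm26645, Zfp68 and Lancl1 and reached 81 to 85 bp from it, with fold enrichments from 3.89 to 10.2. Just outside the rule, a second box that reached 94 to 99 bp placed Ehd4, Hsd17b12, A430035B10Rik, Higd1a and Cep89 among the peaks with several boxes (4.55 to 8.23), and Sp3os, Gm45389 and Rcn1 had their only box 112, 112 and 122 bp away (7.85, 3.89 and 17.5). A further box between 101 and 200 bp from the summit was present in 52 of the 210 peaks (24.8%), the nearest at Txndc16, Osbpl2 and Gm24574 with 102, 104 and 105 bp.

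The summit was not centred on the box. Along the strand that reads CCAAT, it lay on the 5′ side of the box in 152 of 210 peaks (72.4%, 66.0 to 78.0), at the centre of the box in 2 and on the 3′ side in 56, with a median of 12.5 bp (9 to 16). The same side was found for boxes on the plus strand (78 of 106, 73.6%) and on the minus strand (74 of 104, 71.2%) of the chromosome. It was also found for boxes that read along the gene (54 of 75, 72.0%), for those that read against it (70 of 98, 71.4%) and for those over 1 kb from a TSS (28 of 37, 75.7%). In peaks with several boxes the summit was on the 5′ side of the nearest box in 56.5% (52.0 to 60.9), with a median of 3 bp (1 to 5). This measure was examined after the positions were seen.

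**Figure D3:**
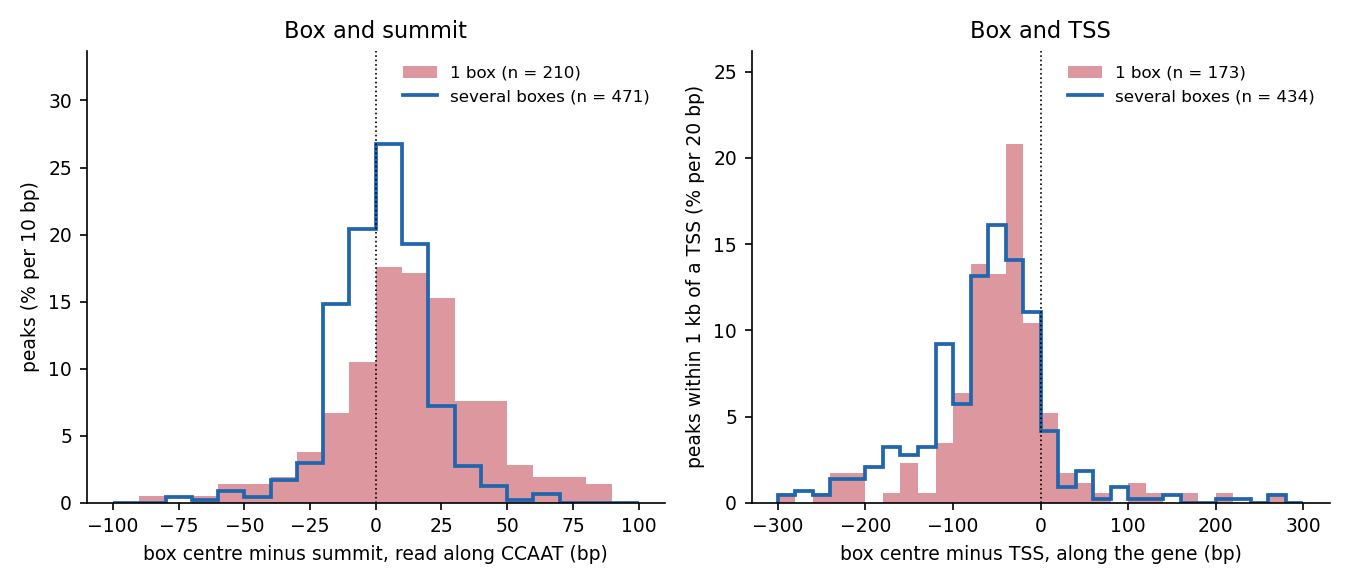
Percent of peaks by the distance in bp from the summit to the box along the CCAAT strand (left) and from the TSS to the box along the gene (right, the part near the TSS), for the 1-box peaks (filled) and for the nearest box in peaks with several boxes (line). In the 1-box peaks the box centre lies a median of 12.5 bp to the 3′ side of the summit and 44 bp upstream of the TSS.

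Most of the 1-box summits, 173 of 210 (82.4%, 76.7 to 86.9), lay within 1 kb of an annotated TSS, compared with 86.2% of all 733 NF-Y-ChIP peaks. In peaks with several boxes the share was 92.1%, a difference of -9.76 points (-15.9 to -4.42), and in those without a box it was 48.1%. Within 1 kb, the box lay a median of 44 bp upstream of the TSS (35 to 55), with the middle of the distribution from 83 to 18 bp upstream. It was upstream in 145 of the 173 peaks (83.8%), and 83 (48.0%) fell between 120 and 30 bp upstream, compared with 51.4% of the nearest boxes in peaks with several boxes. By annotation, 121 boxes lay outside annotated genes, 51 in introns, 36 in exons outside coding sequence and 2 in coding exons. The nearest TSS belonged to a protein-coding gene in 161 of the 173 peaks.

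The box had no preferred direction that could be told from an even split. CCAAT read along the gene in 75 of 173 peaks (43.4%, 36.2 to 50.8) and in 50.9% of the nearest boxes in peaks with several boxes, a difference of -7.57 points (-16.1 to 1.23). TSSs on both strands were present within 1 kb of the summit in 28.9% of these 173 peaks and in 29.7% of the corresponding peaks with several boxes.

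An H3K4me3-ChIP peak overlapped 175 of the 210 peaks (83.3%, 77.7 to 87.8), while 88% of all NF-Y-ChIP peaks had one. The share was 94.9% in peaks with several boxes, a difference of -11.6 points (-17.4 to -6.54), and 44.2% in those without a box. Counting boxes within 50 bp of the summit instead gave 303 1-box peaks and 343 with several boxes. The difference was then -4.07 points with an interval that included 0 (-8.45 to 0.0891).

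The lower overlap went with the position relative to the TSS. Within 1 kb of a TSS, 167 of 173 1-box peaks (96.5%) and 97.5% of the peaks with several boxes overlapped H3K4me3, a difference of -0.934 points (-4.98 to 1.76). Beyond 1 kb, 8 of 37 1-box peaks (21.6%, 11.4 to 37.2) and 24 of 37 peaks with several boxes (64.9%, 48.8 to 78.2) did, a difference of -43.2 points (-60.03 to -20.8). CpG content moved with this difference. Beyond 1 kb the 201 bp around the summit held a median of 2 CpGs in the 1-box peaks and 10 in those with several boxes, and the part of CpG content in the H3K4me3 overlap was not tested.

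**Figure D4:**
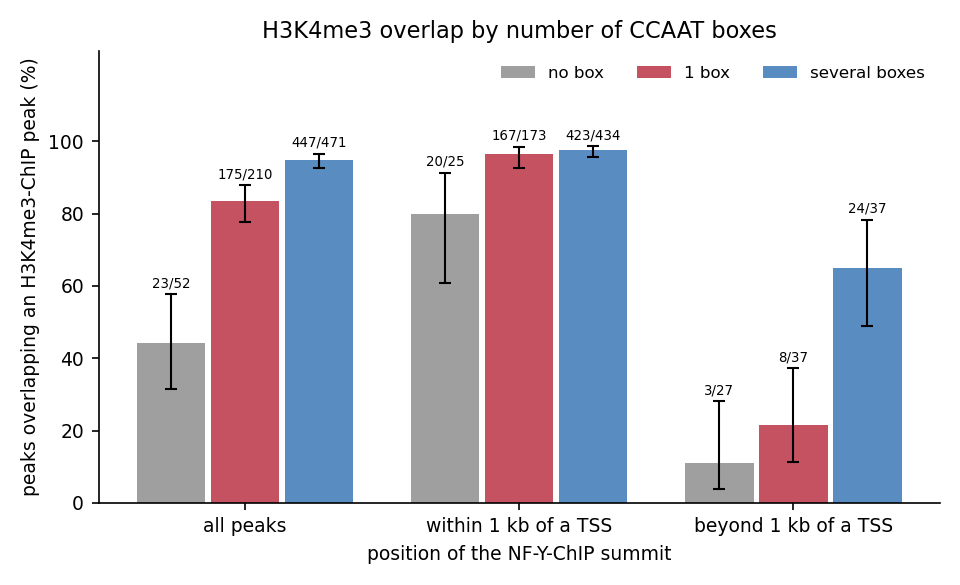
Percent of NF-Y-ChIP peaks that overlap an H3K4me3-ChIP peak, by number of CCAAT boxes, for all peaks and for summits within 1 kb and beyond 1 kb of a TSS, with counts above the bars and Wilson 95% intervals. Within 1 kb the 1-box peaks (96.5%) and those with several boxes (97.5%) have overlapping intervals, and beyond 1 kb the values are 21.6% and 64.9%.

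Where H3K4me3 was present, its strength did not differ beyond the intervals from that at peaks with several boxes. The overlapping H3K4me3-ChIP peak had a median fold enrichment of 44.2 (40.4 to 48.2) and a width of 1570 bp, compared with 45.0 (43.0 to 46.7) and 1577 bp there. The H3K4me3-ChIP summit lay downstream of the box in 135 of 167 promoters (80.8%), at a median of 244 bp along the gene. Across the 175 peaks, the fold enrichments of NF-Y-ChIP and H3K4me3-ChIP had a Spearman correlation of -0.00779.

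The 35 1-box peaks without H3K4me3 were mostly distal and poor in CpG. They held a median of 2 CpGs in the 201 bp around the summit and a GC content of 47.3%, compared with 17 CpGs and 65.2% in the 175 with H3K4me3. All 4 near flanking conditions held in 16 of the 35 (45.7%) and in 122 of the 175 (69.7%), a difference of 24.0 points (6.38 to 40.5). Median fold enrichment was 5.84 (5.11 to 6.75) in the 35 and 6.50 (6.30 to 6.89) in the 175. Only 6 of the 35 were within 1 kb of a TSS, among them Tle6, Kdm6bos, Kmt5c, Gm20513 and Gpr153. The strongest of the rest were at AC113961.1, Gm31816, Man1c1 and Gm14487 (11.1), followed by BC048403 (8.23), Gm14237 (8.02), Rbfox3 (7.63) and Gm36120 (7.32). Boxes of these distal peaks with the favoured flanks are shown here for comparison with the promoter boxes above, with the core in capitals.
Gm14237, chr2:168252851-168252879, minus strand: accaaccctgagCCAATcaatgaggacct
Rbfox3, chr11:118739607-118739635, plus strand: gacttgctttggCCAATgacgtggcagtg
Gm36120, chr9:83657840-83657868, minus strand: gcactgcttggaCCAATcagatcagggca
The soft-masked (repeat) part of the reference held 4 of the 210 boxes, at Ypel2, Crim1, Gm43675 and Ccdc184.

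Among the 15 motifs searched around the summits, an E-box showed the largest excess in 1-box peaks over those with several boxes. CACGTG, the E-box form bound by MYC/MAX, USF and related basic helix-loop-helix factors, occurred within 100 bp of the summit in 45 of the 210 peaks (21.4%, 16.4 to 27.5). It occurred in 9.34% of peaks with several boxes (difference 12.1, 6.26 to 18.6) and in 8 of the 52 peaks without a box (15.4%, 8.01 to 27.5). Marked promoter windows without a summit held it in 6.97% and windows 500 bp from summits in 3.62%. The 50908 marked promoter windows stand for TSS positions, so a gene with several TSSs can be counted more than once. Among summits within 1 kb of a TSS the shares were 23.1% and 9.45%. CACGTG is its own reverse complement and shares no base with the CCAAT core.

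The E-box stood at particular distances from the box. With the CCAAT strand read 5′ to 3′, CACGTG ended 10 to 12 bases before the core in 18 peaks, with 10 bases between in 2, 11 in 8 and 12 in 8. It began 16 to 20 bases after the core in 12 peaks, with 16 bases between in 3, 18 in 2, 19 in 6 and 20 in 1. The stretches that hold both elements at these spacings are shown for 12 of the 30 peaks, over a wide range of fold enrichment (4.64 to 33.7), with CACGTG and CCAAT in capitals.
Depdc1b, chr13:108316297-108316325, plus strand: tgtCACGTGccctcgcaacgtCCAATcag
Med13, chr11:86358319-86358347, minus strand: gccCACGTGacctcgcggcggCCAATggg
AC113961.1, chr19:29064007-29064036, plus strand: taccCACGTGgccgtgcctggCCAATgaac
Med13l, chr5:118560237-118560266, plus strand: ccgtCACGTGacgcgccgcagCCAATggcg
Chaf1a, chr17:56040314-56040342, plus strand: tgtCACGTGacgcaagctcctCCAATcgg
Atxn3, chr12:101958253-101958282, plus strand: tagcCACGTGcctctcgccaaCCAATcact
Sirt4, chr5:115475949-115475977, minus strand: aacCACGTGtcctcacagcagCCAATcag
Tle3, chr9:61372297-61372325, minus strand: gCCAATgggagtgcgaggctccCACGTGg
Dnpep, chr1:75317700-75317728, plus strand: tCCAATcaggctgcgttctaacCACGTGg
Akap11, chr14:78536988-78537017, minus strand: CCAATggagagggcgcctccgcgtCACGTG
Spryd4, chr10:128211837-128211866, plus strand: CCAATgactggtccgcgcccggagCACGTG
Smc3, chr19:53600054-53600083, minus strand: CCAATcgccgagcgcgccggaggtCACGTG
The first 7 have the E-box before the box and the last 5 have it after.

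Either spacing was found in 30 of the 210 boxes (14.3%, 10.2 to 19.7). It was found in 12 of 471 nearest boxes in peaks with several boxes (2.55%) and in 21 of all 1223 boxes of those peaks (1.72%). Single boxes at marked promoters without a summit had it in 39 of 5071 (0.769%), and those 500 bp from summits in 1 of 262 (0.382%). Anywhere within 60 bases of the core, CACGTG was present for 40 of the 210 single boxes (19.05%) and 5.73% of the nearest boxes in peaks with several boxes. The spacings were set after the distances in the 1-box peaks were seen, so the comparison is a description, with no interval of a difference. A match is a run of letters and not a measured binding site.

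**Figure D5:**
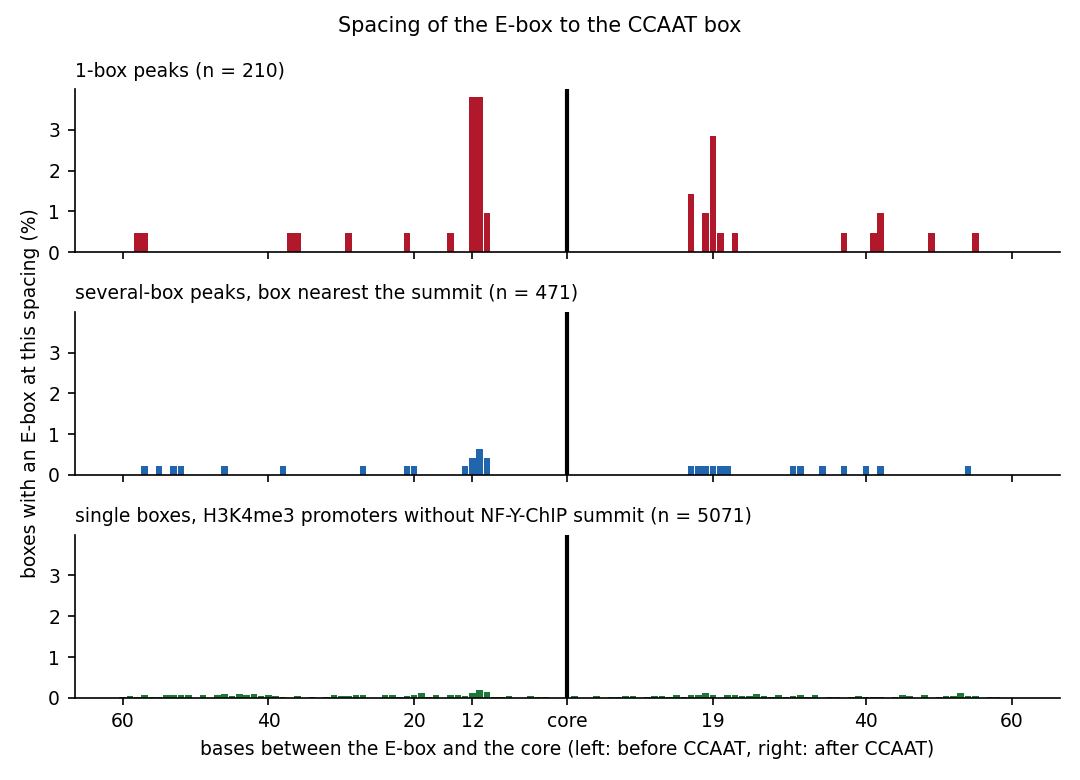
Percent of boxes with CACGTG at each number of bases before (left) or after (right) the CCAAT core, in separate panels for 1-box peaks, the nearest box in peaks with several boxes and single boxes at marked promoters without an NF-Y-ChIP summit. The 1-box peaks rise at 11 and 12 bases before the core (8 peaks each) and at 19 bases after it (6 peaks).

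The 45 peaks with CACGTG and the other 165 are set side by side here without a test. The median fold enrichment was 7.17 (6.33 to 8.43) with CACGTG against 6.33 (6.04 to 6.70), and 14 of the 45 (31.1%) were among the 25% of all peaks with the highest fold enrichment, against 28 of the 165 (17.0%), with overlapping intervals. H3K4me3-ChIP overlapped 42 of the 45 (93.3%) and 133 of the 165 (80.6%). The median distance from box to summit was 24 bp against 18 bp, and the summit lay on the 5′ side of the box in 39 of 45 (86.7%, 73.8 to 93.7) against 113 of 165 (68.5%, 61.0 to 75.1). The E-box centre was a median of 27.5 bp from the summit and was nearer to it than the box in 20 of the 45. All 4 near flanking conditions were met in 30 of 45 (66.7%) and 108 of 165 (65.5%), and GC stood 7 and 6 bases before the core in 14 of 45 (31.1%) and 74 of 165 (44.8%).

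The 30 peaks at these spacings include the top 3 of the 1-box peaks, Depdc1b, Med13 and AC113961.1. With the E-box before the box were also Ankrd12 (14.3), Serf2 (14.2), Med13l (11.4), a paralog of Med13, and Chaf1a (9.25), a subunit of the histone chaperone that acts at replication forks. Others of this kind were Ypel5 (8.71), Atxn3 (8.34), a deubiquitinase, Lmnb1 (8.27), which encodes lamin B1, Eif4e (8.23), the cap-binding translation factor, Aldh3a2 (6.87), Fbxl2 (6.64), Rusc1 (6.18), Anxa6 (5.92), Sirt4 (5.88), Phc2 (5.18) and Prdm1 (4.63). With the E-box after the box were Tle6 (16.04), Intu (12.9), a gene of ciliogenesis, Tle3 (9.38), Akap11 (7.88), Txlng (7.17), Dnpep (6.48), Spryd4 (6.33), Trmt10a (6.30), Ybx2 (5.25), Rspry1 (4.95), Smc3 (4.64), a cohesin subunit, and Rnft2 (4.32). The 30 peaks thus ran from 4.32 to 33.7 in fold enrichment.

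Of the 15 motifs searched, YY1 and C/EBP letters were also more frequent in 1-box peaks than in those with several boxes. AAGATGGC, on either strand, the YY1 motif, was within 100 bp of the summit in 13 of 210 (6.19%, 3.65 to 10.3) against 2.12% (difference 4.07, 0.990 to 8.29). It was in 4.04% of marked promoter windows without a summit, a share inside the 1-box interval, and in 1.64% of windows 500 bp away. Peaks without a box had it in 3 of 52 (5.77%). All 13 overlapped H3K4me3, their median fold enrichment was 6.04, and the number of bases to the box varied from 25 to 95. TTGCGCAA, the palindrome bound by C/EBP factors, was in 9 of 210 (4.29%) against 0.212% (difference 4.07, 1.83 to 7.73). It was in 0.196% of marked promoter windows without a summit and in 0.0682% of windows 500 bp away. It was in 20 of the 52 peaks without a box (38.5%).

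The 9 peaks with the C/EBP palindrome were unlike the others. The palindrome was nearer to the summit than the CCAAT box in 7 of them, at a median of 24.5 bp against 46 bp for the box. All 4 near flanking conditions held in 2 of the 9 and GC at positions 7 and 6 before the core in 0 of 9, only 3 overlapped H3K4me3, and they held a median of 5 CpGs. They were nearest to Mpc2 (9.56), Prmt3 (8.60), Ctr9 (6.96), Crim1 (6.50), Gm22295 (6.30), Gm29460 (5.11), Gpr153 (4.33), Gm17075 (3.10) and Gm15201 (3.10). The letters of 3 in which the palindrome stood close to the box are shown, with both in capitals.
Gm22295, chr3:67146464-67146493, minus strand: ggactaTTGCGCAAtggcaCCAATctttct
Gm17075, chr2:96707945-96707973, plus strand: accaggtaTTGCGCAACCAATctagcatt
Gm15201, chrX:162735785-162735814, plus strand: gcTTGCGCAAtaaaacatggaggCCAATgg
At Gm17075 the palindrome is directly followed by CCAAT with no base between.

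Most of the other motifs did not differ from the peaks with several boxes beyond the interval of the difference. The GC box GGGCGG was in 58.1% of 1-box peaks, 61.6% of peaks with several boxes (difference -3.48, -11.5 to 4.39) and 56.5% of marked promoter windows without a summit. The ETS core CCGGAA was in 13.8%, 13.6% and 22.1%. The CHR element TTTGAA, known from cell cycle promoters, was in 9.05%, 9.13% and 6.14%, and in 11.9% of windows 500 bp away. Among summits within 1 kb of a TSS, CHR was in 6.36% of 1-box peaks and 8.99% of those with several boxes. The TATA box TATAAA was in 6.67%, 2.97% and 3.35% (difference from several boxes 3.69, 0.398 to 8.07), and in 8.66% of windows 500 bp away. Among summits within 1 kb of a TSS this difference was 1.98 (-1.25 to 6.55). The heat shock factor pattern TTCNNGAA was in 5.71%, 2.34% and 3.94%, and in 5.66% of windows 500 bp away. Its difference from peaks with several boxes was 3.38 (0.368 to 7.51) over all summits and 2.90 (-0.186 to 7.41) within 1 kb. The arrangement of the ER stress element, CCAAT followed after 9 bases by CCACG, occurred in 1 of the 210 peaks, nearest to Gm24574 and counted for Hnrnpa3, and in 6 peaks with several boxes, at Derl3, Hsp90b1, Xbp1, Dnajc3, Hspa5 and Foxk1.

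Within 1 kb of their TSS, 194 protein-coding genes had a 1-box summit, of which 193 were among the 13751 protein-coding genes with H3K4me3 at a TSS (1.4%). A several-box summit was present at 486 of these 13751 genes (3.53%). Genes of mitosis and cytokinesis had a 1-box summit in 4 of 82 marked genes, against 17 with a several-box summit. These were Depdc1b (33.7), Depdc1a (7.88), the condensin subunit Ncaph (7.14) and Racgap1 (6.18), which acts at the central spindle. All 4 overlapped H3K4me3, with its fold enrichment between 28.3 and 59.3, and their boxes lay 2 to 12 bp from the summit. Genes of DNA replication and repair had 3 of 70, Chaf1a (9.25), Brca1 (5.57), a factor of homologous recombination, and Gins1 (4.33), a subunit of the replicative helicase, against 12 with several boxes. Cep57 (4.83) was the 1 gene of 34 for the centrosome and primary microcephaly.

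Genes for hnRNPs, SR proteins and splicing factors were the list with the most 1-box summits, 7 of 82, and 6 with several boxes. Among them were Hnrnpa3 (6.50), Hnrnpc (6.04), Prpf38b (5.56), Sf3b2 (4.17) and Srsf5 (3.02). Flanks met all 4 conditions at Hnrnpa3 and Prpf38b, 3 at Hnrnpc, and 2 at Sf3b2 and Srsf5. All of these named genes had an H3K4me3-ChIP peak over the summit, with a fold enrichment between 43.7 and 65.9.

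Other lists held few 1-box summits. Of 44 marked genes for ER chaperones and the unfolded protein response, 1 had a 1-box summit, Dnajb9 (8.75), an ER chaperone, and 13 had several boxes. Of 39 genes for cholesterol and fatty acid synthesis, 1 did, Srebf2 (5.75), the transcription factor of sterol synthesis, and 8 had several boxes. Of 57 genes for histone chaperones and chromatin regulators, 1 did, Smc3, and 8 had several boxes. Ndufb3 (9.77), of complex I, was the 1 of 96 genes for oxidative phosphorylation and the mitochondrial ribosome. Insm1 (5.32), a zinc finger factor of neurogenic progenitors, was the 1 of 34 cortical transcription factors. No 1-box summit was found in the lists of cytosolic and mitochondrial chaperones (41 marked genes), aminoacyl-tRNA synthetases (39), proteasome and ubiquitin (42), glycolysis (21), synaptic and neuron-specific genes (40), or NF-Y subunits and CCAAT-binding proteins (9, of which 3 had several boxes). With counts this small, nothing particular to any list was read from them.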

How the data were processed

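The authors checked reads with FastQC, trimmed them with Trimmomatic, aligned them to GRCm38 with Bowtie2 2.2.8 and called peaks with MACS2 2.1.2, with a p-value cut-off of 0.001 (NF-Y-ChIP) and a q-value cut-off of 0.05 (H3K4me3-ChIP). The authors name the input as the negative control of the ChIP, and whether MACS2 was run against it is not given in the sources used here. As deposited, fold enrichment is a ratio, summit signal over local background. The deposited −log10 values are those of each p-value and q-value, and the score in the deposited lists multiplies one of them by 10 and drops the decimals (p-value in NF-Y-ChIP, q-value in H3K4me3-ChIP), from which the 2 lists were identified. Values were used as deposited.

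Boxes were searched in the RefSeq GRCm38.p6 sequence (Python 3.11.15, pysam 0.24.0), TSSs were the transcript 5′ ends of GENCODE M21, and overlap was counted from 1 bp. Shares have Wilson 95% intervals, differences Newcombe intervals and medians intervals from order statistics (SciPy 1.17.1). They cover the counting of peaks only. The scripts were tested on simulated data. The motif searches, comparison windows and gene lists, like the members themselves, were chosen with earlier results of these data known. Named genes were the 1-box peaks with the highest and lowest fold enrichment, those without H3K4me3, members of the lists, peaks next to a threshold, and those with a named motif, which were named after their values were seen. No sequence from chromosome 18 is printed, and some members of the lists are not reported here. No peak list of the input was used here, and the RNA-seq of the study was not analysed here.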

Additional observations from a re-analysis of the deposited data

How the results depend on the processing

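Each of 13 results was recomputed under alternatives, 101 values in all. Of these, 90 moved by less than their 95% interval (1.5 times for the number of peaks) and kept their direction. Counting overlapping boxes as 1 left all 13 results unchanged, because 0 of the 274 2-box peaks had boxes that overlap. Those 13 values are among the 90. The cut-offs of q below 0.05 and p below 1e-05 kept most of the same peaks, 199 and 202 of the 210. Counting boxes within 50 bp of the summit changed the groups to 303 1-box peaks and 343 with several boxes, from 210 and 471. The number 303 stayed within the 1.5 times allowed and is among the 90. Of the 303, 90.1% overlapped H3K4me3 and 88.4% lay within 1 kb of a TSS. The difference in H3K4me3 overlap from peaks with several boxes was -4.07 points. Requiring at least 50% of the NF-Y-ChIP peak to be covered gave 77.6% with H3K4me3, and the stronger H3K4me3-ChIP peaks alone gave 68.6%. The share within 1 kb of a TSS was 76.2% when only the 5′ ends of genes were used. It was 75.7% within 500 bp and 87.6% within 5 kb, in the direction that narrower or wider limits must give. Accepting 3 of 4 flanking bases gave 91.0% of 1-box peaks and a difference of -0.130 points from peaks with several boxes, and counting any box of those peaks gave -15.6 points. The cause of the other shifts was not tested. The alternatives for the E-box and the side of the summit were chosen after seeing the data. Depth is unknown, so places where no peak was called may still be bound.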
